A study of Xenopus laevis with 18 samples.

Results

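The transcripts described here were absent or nearly absent from the egg and cleaving embryo of the African clawed frog Xenopus laevis, had appeared by Nieuwkoop and Faber stage (NF) 9, and were present on average in tailbud embryos. They were chosen by their measured levels, by rule, among 30993 Xenopus rows of the table. The mean over NF 0, 2, 6, 6.5 and 7 had to be under 1 TPM, the mean over NF 23, 26, 30 and 33 at least 10 TPM, and the first library at 10 TPM or more had to be NF 9 or earlier. TPM is an abundance relative to a total of 1000000 over all Xenopus rows of a library, so it compares levels per transcript length. The rule found 61 rows, which are 3.46% of the 1761 rows that met both limits on the means. A further 94 rows met the pre-midblastula and onset limits but had a tailbud mean under 10 TPM, so the 61 are the part of the earliest transcripts that also met the tailbud limit.

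In this species the embryo divides at first with little transcription of its own and relies on RNA laid down in the egg. Transcription from the zygotic genome becomes widespread at the midblastula transition, in the blastula, and the germ layers are set up and moved into place in the gastrula that follows. Transcripts that are missing from the egg and appear in the blastula are therefore called zygotic. The neurula folds the neural plate into a tube, and in the tailbud embryo organs begin to form. The frog is an allotetraploid, so many genes exist as a pair of similar copies, one on each of the subgenomes L and S.

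RNA came from whole embryos of the J strain, untreated apart from a gentamycin-containing culture medium, and 1 library was made for each of 18 stages. Stages were grouped into pre-midblastula (NF 0 to 7, n = 5), blastula (NF 8, 8.5 and 9, n = 3), gastrula (NF 10 and 12, n = 2), neurula (NF 14, 16, 18 and 20, n = 4) and tailbud (NF 23, 26, 30 and 33, n = 4) windows. The number of embryos in a library, and their parents, were not given in the sources used here. P-values therefore measure only the spread between these libraries. Every SD below is a spread between neighbouring stages of a window, which holds real change as well as technical spread. Depth is unknown, because TPM keeps none. None of the row names was found in the RefSeq gene table used here (0 matches), and the files do not pair them with genes. No gene, protein or promoter is therefore named, and 4 row names are printed.

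The levels before the midblastula were near 0, as the rule required. Of the 61 rows, 32 were listed at 0 in all 5 pre-midblastula libraries, 6 stood at 1 TPM or more in at least 1 of them, and the highest single value was 1.81 TPM. Together the 61 rows held 0.000518% ± 0.000173 of the Xenopus total in this window (SD, n = 5). The first library at 10 TPM or more belonged to NF 8 for 4 rows, to NF 8.5 for 18 and to NF 9 for 39. The onset therefore leans on 1 library, and without NF 9 the rule found 22 rows. The rows nearest to each limit show how sharply it was set. The highest pre-midblastula means inside the rule were 0.585 and 0.531 TPM and the lowest outside it 1.045 and 1.065 TPM. Tailbud means inside began at 10.1 and 10.15 TPM, with 9.81 and 9.45 TPM just outside. Onset values inside began at 10.01 and 10.09 TPM, and rows that first reached 10 TPM at NF 10 came up to 9.38 and 9.32 TPM before it.

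The 61 rows were of 2 kinds, told apart after their values were seen. In 11 of them, called intermittent here, between 4 and 11 libraries after the onset were listed at 0. The other 50, called continuous, had at most 1 such library, and only 1 of them had any. All 4 rows with an onset at NF 8 were intermittent, as were 6 of the 18 with an onset at NF 8.5 and 1 of the 39 with an onset at NF 9. Their values jumped between 0 and a high level. The smallest value above 0 in a row had a median of 39.5 TPM over the 11 intermittent rows and of 0.306 TPM over the 50 continuous rows. In 10 of the 11 no library lay between 0 and 10 TPM, a pattern held by 1 of the 50 continuous rows and by 0.968% of all Xenopus rows. The 11 were picked for their 0 values and for reaching 10 TPM, so nothing is read from that share. One pair of intermittent rows carried equal deposited values at NF 8 and at NF 30, which were 56.9 and 53.0 TPM after rescaling. Among 36 spike-in RNAs of a mean of 10 to 1000 on the same scale, 1 was listed at 0 in 2 or more libraries. A 0 in these rows says only that the row was listed at 0, and what made the jumps was not tested. For the 11 intermittent rows the name lasting zygotic transcript does not describe the course seen, and the counts below are given for the continuous rows or for all rows, as stated.

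**Figure D1:**
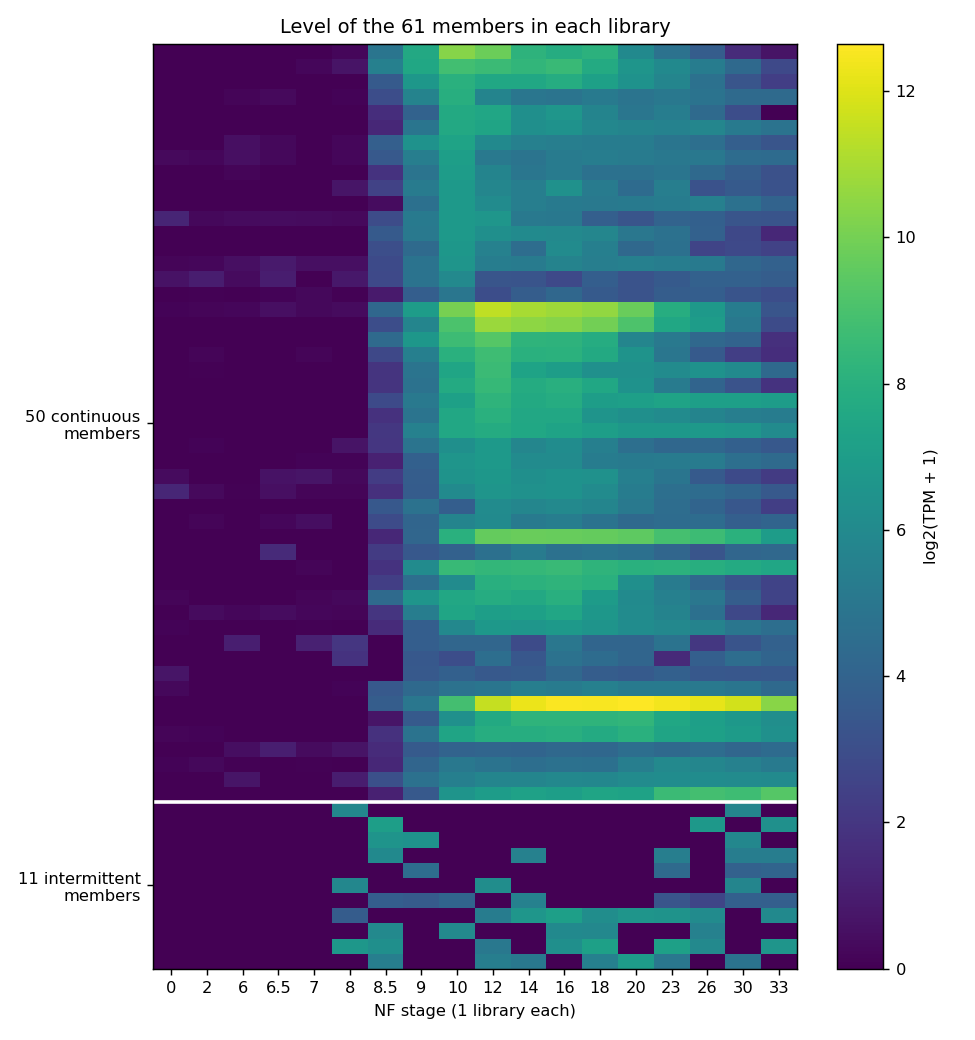
Level of each of the 61 rows (one line each) in the 18 libraries, as log2(TPM + 1), with NF stage along the horizontal axis. The 50 continuous rows lie above the white line, ordered by the stage of their highest library. They first reach 10 TPM at NF 8.5 or NF 9, and the rule required this by NF 9. The 11 intermittent rows below the line alternate between 0 and high values.

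Among the 50 continuous rows the onset, which the rule placed at NF 9 or earlier, was graded. At NF 8 none was at 10 TPM and 2 were at 1 TPM or more. At NF 8.5 44 were at 1 TPM or more and 12 at 10 TPM or more, with a median of 3.66 TPM. At NF 9 the median was 27.3 TPM and the range 10.0 to 194 TPM. In every one of the 50 the value at NF 9 was above that at NF 8.5, by a median of 6.83-fold over the 47 rows above 0 at both stages. These values are part of how the rows were chosen and carry no test. Levels were higher again past the stages used by the rule. At NF 10 the median was 114 TPM, 48 of 50 rows were higher than at NF 9, and the median ratio was 4.21. On log2(TPM + 1), 40 of the 61 rows, 39 of them continuous, were at least 2-fold higher at NF 10 than at NF 9, against 5.96% of the 21670 rows whose mean reached 1 TPM. NF 9 values helped to choose the rows, so nothing is read from this difference. Each step compares 1 library with 1 library. Columns of NF 0 to NF 8 carry a header suffix that later columns lack. The deposited column of NF 8 also sums to 1000000 and that of NF 8.5 to more. Whatever the suffix and the totals stand for cannot be told apart from the step from NF 8 to NF 8.5.

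The highest level came at gastrula or neurula stages for 47 of the 50 continuous rows in TPM. Per spike-in it lay at gastrula stages for 24 and at neurula stages for 13. NF 10 was the highest library in 17 rows and NF 12 in 15, and the highest library lay in the neurula window in 15 and in the tailbud window in 3. The first library at 50% or more of a row's own highest value was NF 10 for 36 of the 50 rows and NF 12 for 10, with 2 rows earlier and 2 later. Highest values ranged from 18.3 to 6395 TPM with a median of 149 TPM. All 4 rows that ever exceeded 1000 TPM were continuous, and 32 had a highest value between 100 and 1000 TPM.

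**Figure D2:**
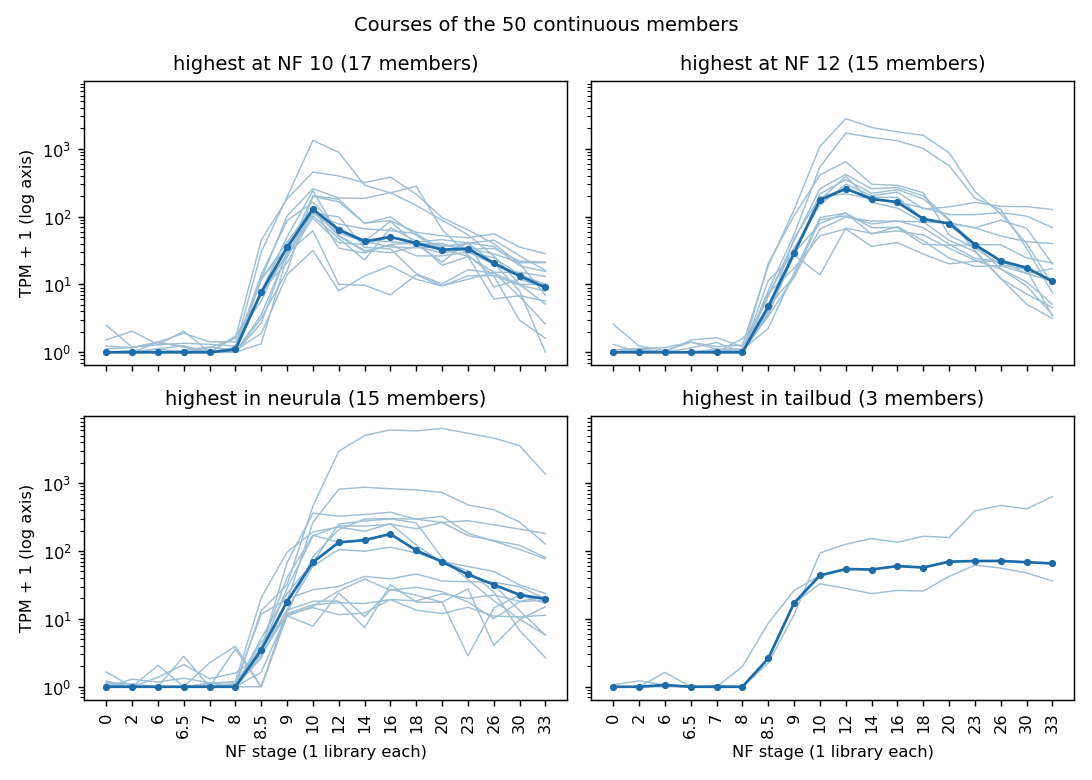
TPM + 1 on a log axis against NF stage for the 50 continuous rows, split by where the highest library lay. Thin lines are single rows and the thick line is the median of the panel. Medians of the 17 rows highest at NF 10 go from 128 TPM at NF 10 to 8.04 TPM at NF 33, while those of the 3 rows highest in the tailbud window are 42.6 TPM at NF 10 and 64.6 TPM at NF 33.

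The following groups were split by their highest library, so their courses are descriptions. The 17 rows that were highest at NF 10 come first. Their median was 34.0 TPM at NF 9 and went over 128 and 62.8 TPM in the gastrula libraries to 42.0 TPM at NF 14. The ratio of NF 12 to NF 10 had a median of 0.486 and went down to 0.149. The median went on down, to 31.5 TPM at NF 20 and 8.04 TPM at NF 33. One of them is the row with the highest NF 9 value of all 61, XeXenL6RMv10055418m, named after its values were seen. All 5 pre-midblastula libraries listed it at 0. Its blastula values were 0.170, 29.0 and 194 TPM, and it reached 1322 TPM at NF 10. Its level was 882 TPM at NF 12, 288, 223, 277 and 63.4 TPM from NF 14 to NF 20, and 25.8, 12.3, 1.96 and 0.607 TPM from NF 23 to NF 33. Both gastrula libraries lay above all 4 neurula libraries, and these above all 4 tailbud libraries. Its log2 change from gastrula to neurula was -2.55 with a standard error of 1.36, which did not pass the test (limma adjusted p = 0.122), and over 19 alternatives the adjusted p ranged from 0.0226 to 0.777. In its case the tailbud mean of 10.2 TPM rested on NF 23 and NF 26.

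The 15 rows highest at NF 12 ended at a median of 6.13% of their highest value at NF 33, close to the 7.00% of the rows highest at NF 10. Their median was 174 and 256 TPM in the gastrula libraries, and it went from 181 TPM at NF 14 over 77.9 TPM at NF 20 to 10.1 TPM at NF 33. The second most abundant of the 61 rows belongs to them. It had 125 TPM at NF 9 and gastrula values of 1075 and 2770 TPM. Its 4 neurula values went from 2047 TPM at NF 14 to 866 TPM at NF 20, and its 4 tailbud values from 231 TPM at NF 23 to 8.93 TPM at NF 33. The third most abundant row followed the same order, with 1696 TPM at NF 12 and 6.50 TPM at NF 33. At NF 33 these rows stood at 0.322% and 0.383% of their highest values.

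The 15 rows highest in the neurula window had medians of 67.2 and 133 TPM in the gastrula libraries, 144 TPM at NF 14 and 18.7 TPM at NF 33. They include the most abundant of all, XeXenL6RMv10040861m. Every library up to NF 8 listed it at 0. It had 12.2 TPM at NF 8.5 and 30.8 TPM at NF 9, close to the NF 9 median of the continuous rows. Its 2 gastrula values were 460 and 2943 TPM and its 4 neurula values 5030, 6088, 5871 and 6395 TPM. Tailbud values were 5429, 4607, 3563 and 1351 TPM. Neurula libraries did not overlap gastrula libraries, and the log2 change was 2.32 (standard error 0.932, limma adjusted p = 0.0435, higher in 4 of 4 neurula libraries). Over the alternatives that kept both gastrula libraries the limma adjusted p ranged from 0.0093 to 0.639. Without NF 10 the log2 change was 0.98. This row alone made up 4.81% of the summed level of the 61 rows at NF 10, 34.0% at NF 14 and 59.6% at NF 30, before 38.7% in the last library.

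In TPM 3 continuous rows were highest in the tailbud window, and per spike-in 13 were. One of them had 10.5 TPM at NF 9 and 92.4 TPM at NF 10. It lay between 134 and 164 TPM in the neurula window, and at 389, 469, 416 and 632 TPM in the tailbud window. It is the only one of the 61 rows whose tailbud libraries all lay above its neurula libraries, against 22.8% of 21670 rows. The tailbud level entered the rule, so nothing is read from that count. A few rows were nearly level after their onset. In 7 of the 50 the libraries from NF 10 to NF 33 lay within 3-fold of each other, and in the flattest of these they ranged from 15.1 to 22.5 TPM. In 26 rows with no library at 0 they spanned more than 10-fold.

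In TPM the summed level of the rows went up steeply and came down slowly. Their share of the Xenopus total was 0.0239%, 0.0814% and 0.211% in the blastula libraries in stage order, and 0.956% and 1.57% in the gastrula libraries. Neurula libraries gave 1.40% ± 0.174 (SD, n = 4). Tailbud libraries gave 0.665% ± 0.251 (SD, n = 4), and the share went from 0.932% at NF 23 to 0.349% at NF 33. Intermittent rows held 0.0227% at NF 8, nearly all of the share there, and 0.0482% at NF 8.5, the larger part of it. The continuous rows held 0.00122%, 0.0333% and 0.199% in the blastula libraries, and from NF 9 on the intermittent rows held at most 0.0337%. Without the most abundant row the share was highest at NF 12, at 1.28%, and was 0.535% at NF 20 and 0.214% at NF 33. Whole embryos were measured, so fewer cells of a type and less RNA per cell cannot be told apart. TPM is also relative to a Xenopus total that grew against the spike-ins, from 1.39 times the spike-in total at NF 12 to 2.09 times at NF 20 and 4.20 times at NF 33. Set against the spike-in total, the summed level of the rows came to 2.57% ± 0.197 over neurula libraries (SD, n = 4) and 2.27% ± 0.546 over tailbud libraries (SD, n = 4). On that scale it was 2.45% at NF 20, 2.47% at NF 30 and 1.46% at NF 33.

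**Figure D3:**
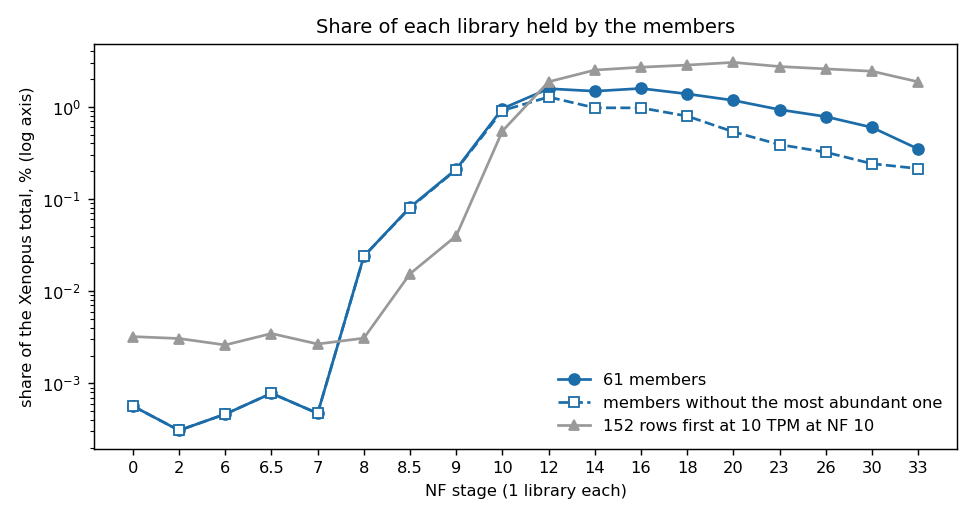
Share of the Xenopus total, in percent on a log axis, held at each NF stage by the 61 rows, by the same rows without the most abundant one, and by 152 rows that met the same limits on the means but first reached 10 TPM at NF 10. The 61 rows go from 0.211% at NF 9 to 1.57% at NF 12 and 0.349% at NF 33.

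Lasting, in the sense of the rule, was a mean over 4 tailbud libraries. Of the 61 rows 24, all continuous, were at 10 TPM or more in every library from their onset to NF 33, and 45 were at 10 TPM or more in every library from NF 10 to NF 23. At NF 33 26 of 61 were under 10 TPM and 7 were under 1 TPM, and among the continuous rows 21 and 2 were. The continuous rows were at a median of 13.6% of their highest value at NF 33, and 23 of the 50 were under 10% of it. For 44 of the 50 there was a stage after the peak from which every library stayed under 50% of the highest value. This stage was NF 12 or 14 in 12 rows, NF 18 or 20 in 21, and NF 23 to NF 33 in 11. At NF 33 48 of 50 rows were lower than at NF 20, with a median ratio of 0.327. Per spike-in 29 of 50 were lower, with a median ratio of 0.657. The size of the change after NF 20, and for some rows its direction, thus depends on the total it is set against. The 24 rows whose tailbud libraries all lay below their neurula libraries compare with 19.6% of the 21670 rows, and since the tailbud level entered the rule, nothing is read from that count.

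Among continuous rows, later levels of the 12 that were on at NF 8.5 and the 38 that came on at NF 9 are given without a test, because rows are not replicates. The onset split these groups and the tailbud libraries, NF 33 among them, helped to choose the rows, so nothing is read from the medians. At NF 10 the medians were 223 and 98.9 TPM, at NF 20 57.8 and 42.4 TPM, and at NF 33 5.33 and 15.5 TPM. The ranges overlapped at each of these stages, with 12.8 to 1322 TPM and 6.83 to 537 TPM at NF 10. At NF 33 they were 0.607 to 1351 TPM and 0 to 632.5 TPM.

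Gastrula and neurula levels took no part in choosing the rows, so they were tested. The spread in the test, however, also came from libraries that did choose them. By rule the onset of the rows lay within the blastula window, so that spread, and with it the number of calls, depends on the rule. The number of calls is therefore not read against the shares of all rows. With limma over all 18 libraries and 21670 rows, 2 of the 61 rows were higher and 1 was lower in the neurula than in the gastrula window (adjusted p under 0.05), against 19.9% of all rows called higher and 34.9% called lower (54.8% in either direction). Without the intermittent rows the counts were 1 and 1. The median log2 change was -0.31 over the 61 rows and -0.24 over all rows tested. Per spike-in these medians were 0 and 0.09, with 3 of the 61 rows higher and 1 lower, against 5526 and 3977 of 22321 rows. The spread that entered this test was wide for these rows, and it includes the differences among their blastula libraries. The median residual SD was 1.12 for the 61 rows and 0.35 over all rows. With only the libraries from NF 10 on, a fit added after the data were seen, these medians were 0.82 and 0.43, and 2 rows were higher and 8 lower, against 14.2% and 23.3% of 22097 rows. All 10 were continuous rows. With the 6 libraries of both windows alone, 3 of the 57 rows tested were higher and 9 lower. Over all rows of that fit 2195 were higher and 3628 lower, of 20311. The median residual SDs there were 0.61 and 0.45. The libraries of the windows did not overlap for 5 rows that were higher in the neurula and 17 that were lower, against 20.6% and 33.9% of all rows.

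The row that fell was XeXenL6RMv10010032m. Its pre-midblastula values lay between 0.190 and 1.51 TPM, and the blastula values were 0.238, 6.70 and 36.2 TPM. The gastrula values were 111 and 97.9 TPM, and the neurula values 34.1, 32.3, 13.4 and 9.20 TPM, so the windows did not overlap. The log2 change was -2.37 (standard error 0.843, limma adjusted p = 0.0251, lower in 4 of 4 neurula libraries), and over 19 alternatives the adjusted p ranged from 0.00385 to 0.633. Tailbud values were 15.5, 13.6, 9.04 and 8.90 TPM. With the libraries from NF 10 on its log2 change of -2.37 is the same by construction of the fit. It was the largest among the 8 rows called lower there, and 2 rows that did not pass had larger negative values. The other row that rose beside XeXenL6RMv10040861m was the intermittent row XeXenL6RMv10029970m. NF 8 held 11.8 TPM of it and NF 12 held 38.1 TPM, while the 3 libraries between them listed it at 0. Neurula values were 100.02, 140, 73.0 and 95.8 TPM, and the tailbud values 89.9, 67.2, 0 and 62.2 TPM. Its log2 change was 4.01 (standard error 1.53, limma adjusted p = 0.0344). Without NF 10, where the row was listed at 0, the log2 change was 1.36, with NF 12 as the only gastrula library. For this row the onset by NF 9 rests on the NF 8 library alone.

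**Figure D4:**
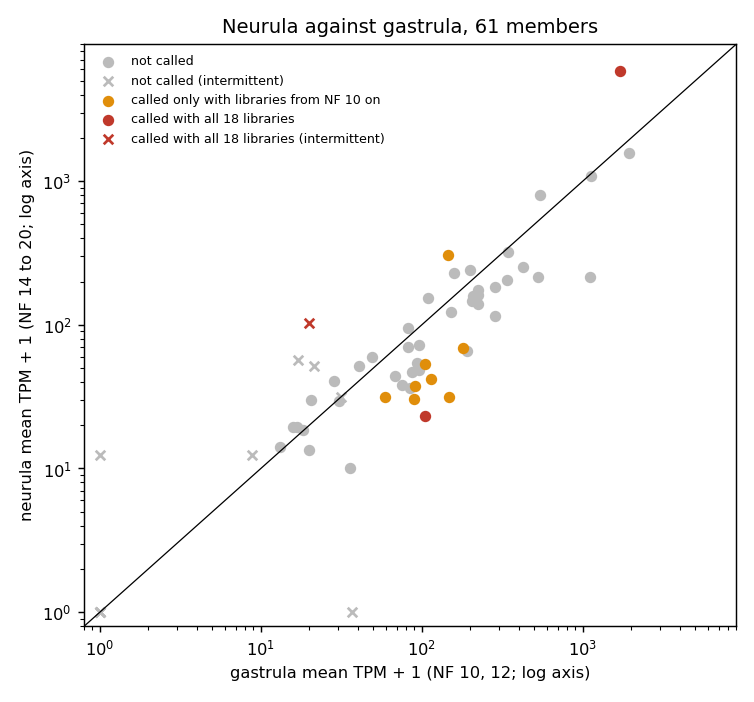
Mean TPM + 1 of the neurula libraries (NF 14 to 20) against that of the gastrula libraries (NF 10 and 12) for the 61 rows, both on log axes, with the line of equality. Crosses are intermittent rows. Red marks the 3 rows called by limma with all 18 libraries and orange the further rows called only with the libraries from NF 10 on, most of which lie below the line.

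Changes between single stages are lost in the window means, and those around NF 12 are given here as a description. From NF 10 to NF 12, 14 of the 61 rows were at least 2-fold higher and 11 at least 2-fold lower on log2(TPM + 1), against 12.3% and 22.2% of 21670 rows. From NF 12 to NF 14, 3 were higher and 12 lower by that much, against 8.71% and 11.5%. Without the intermittent rows these counts were 10 and 9, and then 0 and 10. Each of these steps sets 1 library against 1 library and has no replicate check, and NF 10 and NF 12 also differ in the kind of deposited column. In fits within 1 kind of column the gastrula window is 1 library, whose spread is assumed to be that of the other groups, and the stages compared differ, so they do not check the kind of column. Only effect sizes are therefore given here, and nothing is read from the number of rows called in these fits. Within the columns above 1000000 (NF 10 against NF 18 and 20) the median log2 change was -0.70 over the 59 rows tested and -0.48 over all rows. Within the others (NF 12 against NF 14 and 16) it was -0.19 over the 61 rows and -0.09 over all rows.

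No row passed the test for a trend over NF 14, 16, 18 and 20, which does not show that their levels were constant. With limma over all 18 libraries 0 of the 61 rows rose and 0 fell, against 6.66% and 4.95% of all rows. An unadjusted limma p under 0.05 was found for 1 of the 61, against 5498 of 21670 rows. The spread in this fit includes the blastula libraries, in which the rule placed the onset. Its median residual SD was 1.12 for the 61 rows and 0.29 over all rows. These counts are therefore not read against those of all rows. The median slope was -0.17 per library step on log2(TPM + 1), and 0.00 over all rows. With only the libraries from NF 10 on the counts were again 0 and 0, against 0.638% and 0.0407% of rows. In that fit 20 of the 61 rows had an unadjusted limma p under 0.05, against 3327 of 22097 rows. With the neurula libraries alone 27 of the 56 rows tested had an unadjusted limma p under 0.05, against 4644 of 19844 rows. No row at all passed after adjustment there. NF 14 and NF 16 are of one kind of column and NF 18 and NF 20 of the other, so in the neurula the trend and the kind of column cannot be told apart.

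Values over NF 23, 26, 30 and 33 are a description, because the mean of these libraries chose the rows, and nothing is read from the counts that follow. The slope was below 0 in 50 of the 61 rows and in 46 of the 50 continuous rows, compared with 58.8% of all rows tested. The median slope was -0.35 per library step on log2(TPM + 1), and -0.05 over all rows. Per spike-in these medians were -0.17 and 0.13. The 152 rows that first reached 10 TPM at NF 10 had a median slope of -0.34, close to that of the 61 rows, and 23 of them (15.1%) fell while 0 rose. An unadjusted limma p under 0.05 was found for 10 of the 61, against 5723 of 21670 rows. After adjustment, with limma over all 18 libraries, 2 rows fell and 0 rose, against 7.23% and 5.75% of all rows. Both rows that fell were continuous. One went from 39.6 TPM at NF 23 to 19.6, 7.03 and 0 TPM, and the other from 49.9 TPM to 24.1, 5.75 and 1.68 TPM. With the 4 tailbud libraries alone 24 of the 61 rows fell and 0 rose, against 1146 and 1114 of 22551 rows. With the libraries from NF 10 on, 12 rows fell and 0 rose, against 0.661% and 1.59% of rows. Those 12 rows are continuous. Per spike-in over all 18 libraries 2 fell and 1 rose, against 408 and 3447 of 22321 rows. Without NF 33 none of the 61 rows passed the test over the remaining libraries (limma, 4 with an unadjusted p under 0.05). Over all 21290 rows of that fit 79 fell and 159 rose, and 2206 had an unadjusted limma p under 0.05.

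**Figure D5:**
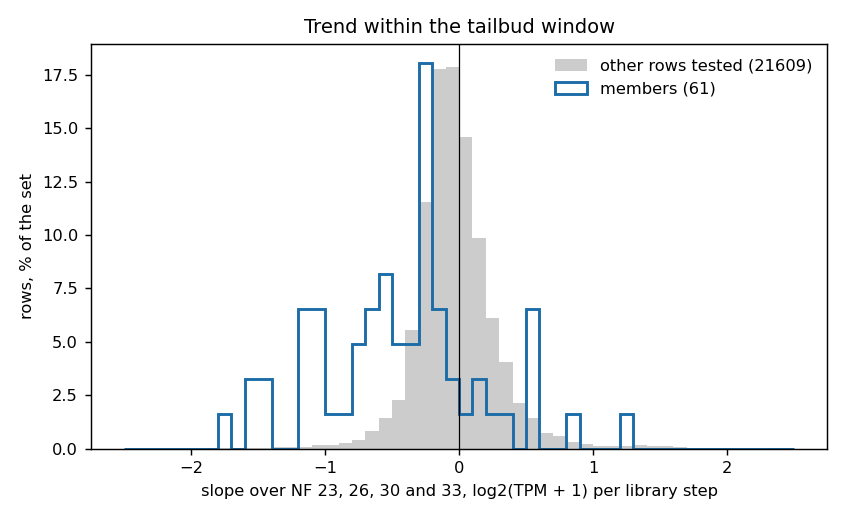
Slope of log2(TPM + 1) per library step over NF 23, 26, 30 and 33, on the horizontal axis, and the percent of rows on the vertical axis, for the 61 rows (blue line) and the other rows tested by limma (grey). Values beyond 2.5 in either direction are drawn at the edge. The median of the 61 rows lies at -0.35 and that of all rows tested at -0.05.

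The class nearest in onset is set beside the 61 rows as a description. It holds 152 rows that met the same limits on the means and first reached 10 TPM at NF 10. Both classes were chosen on pre-midblastula, blastula and tailbud libraries, and the 152 rows on NF 10 as well. Comparisons that use NF 10 are therefore uneven between the classes. The highest library of the 152 rows lay in the gastrula window for 38.2%, in the neurula window for 47.4% and in the tailbud window for 14.5%. For the 61 rows these were 54.1%, 32.8% and 4.92%. For the continuous rows alone these were 32, 15 and 3 of 50. Per spike-in the highest library was computed for the 61 rows only. It lay in the gastrula window for 24, in the neurula window for 15 and in the tailbud window for 22. Of its rows 69.7% were at 10 TPM or more in every library from NF 10 on, and 39.3% of the 61 rows, or 24 of the 50 continuous rows, were so from their onset on. At NF 33 its median row was at 24.4% of its highest value and that of the 61 rows at 13.9%, both in TPM. Per spike-in the 61 rows were at 36.2%, a value not computed for the 152 rows and so not comparable with their 24.4%. In the fit over all 18 libraries 37 of the 152 rows (24.3%) were higher in the neurula than in the gastrula window and 6 (3.95%) lower. Over all rows tested 19.9% were higher and 34.9% lower. The median log2 change of the 152 rows was 0.52. NF 10, 1 of the 2 gastrula libraries, took part in choosing this class, so nothing is read from these counts. Among its rows 0.658% were intermittent, against 18.0% of the 61 rows and 44 of all 1761 rows that met the limits on the means. Rows could join the 61 through any blastula library and the class only through NF 10, after which fewer libraries follow. Nothing is therefore read from this difference. The class held 0.0398% of the Xenopus total at NF 9, with 0.547% and 1.87% in the gastrula libraries and 2.40% ± 0.379 over tailbud libraries (SD, n = 4). None of these differences between the classes was tested.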

How the data were processed

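RNA of whole embryos was depleted of ribosomal RNA and made into libraries, per the labels' protocols. The submitters' processing notes name CASAVA 1.8.2, Trimmomatic, Bowtie and RSEM, without role or order. Which transcript set or build they used was not given in the sources used here. For 9 columns, the deposited values were TPM, summing to 1000000. The other 9 deposited columns, treated here as a score on the TPM scale, summed to 1.48% to 2.72% above it, and why was not given in the sources used here. Rows of 92 ERCC spike-ins were left out and each library rescaled to 1000000 over the Xenopus rows.

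Tests used limma 3.58.1 (R 4.3.3, intensity trend) on log2(TPM + 1) for every row whose mean reached 1 TPM. P-values were adjusted by Benjamini-Hochberg over all of these rows, and the threshold was 0.05. The 5 windows entered 1 fit, and slopes within the neurula and tailbud windows a second. Folds on this scale understate changes of low rows. The fits were tested on simulated data. Alternatives were other scalings, pseudocounts, filters, weights, sets of libraries and limits of the rule. Row names were printed by rule (called between gastrula and neurula, at least 10 TPM, no overlap, at most 2 in each direction), and 1 further name was chosen after its values were seen. The members and lists were chosen with earlier results of these data known. A list of early zygotic genes fixed by symbol was not run, since no row name carries a symbol.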

Additional observations from a re-analysis of the deposited data

Results flagged for a closer look

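In the windows of 4 or 5 libraries, 17 sets of values were screened for one library lying apart from its neighbours. Such a library was found in 2 sets, and chance gives about 0.85. At NF 7, 17 of the 61 rows were above 0, against 13 or 14 in the other pre-midblastula libraries. Row XeXenL6RMv10010032m stood at 1.51 TPM at NF 0, and at 0.190 to 0.356 TPM in the other 4 libraries before the midblastula.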

How the results depend on the processing

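The number of rows the rule found was 61 and within 1.5 times of that under 19 of 23 alternatives. It was 40 with values as deposited (35 of them among the 61), where spike-ins take part of each total, 30 with a tailbud mean of at least 20 TPM and 104 with an onset level of 5 TPM. It ranged from 22 to 65 when a library was left out, with 22 without NF 9. Spike-in scaling shared 48 of 57 rows with the 61 and median ratio scaling 47 of 52.

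Counts between neurula and gastrula are small and moved with most choices. From 2 higher and 1 lower, against 4305 and 7566 of 21670 rows, they went to 0 and 0 with pseudocount 0.1 or array weights. Over all 21670 rows pseudocount 0.1 gave 4362 higher and 7497 lower, and array weights 920 and 1997. Pseudocount 5 gave 3 higher and 7 lower, against 4041 and 7434 of 21670 rows. Without the filter on low values 0 were higher and 1 lower, against 4466 and 7500 of 30993 rows. With median ratio scaling 3 were higher and 0 lower, against 6854 and 4630 of 22033 rows. They were 9 lower with both windows alone, 8 lower with libraries from NF 10 on, 0 higher within columns summing to 1000000, and 4 higher and 6 lower within the others. The number lower within columns summing to 1000000 was the same as in the fit over all 18 libraries. In both fits by kind of column the gastrula window is 1 library, so nothing is read from their counts. Without intermittent rows 1 was higher. With 1 neurula library left out 0 to 1 were higher and 0 to 1 lower. Over all rows of those fits 3886 to 4350 were higher and 7069 to 7358 lower, of 21638 to 21695. For the neurula trend the kind of column as a covariate gave 1 falling row, against 644 of 21670. Left-out libraries gave 0 in either direction, against 144 to 1555 rising and 23 to 1121 falling over all rows. The tailbud trend had 2 falling and 0 rising rows, against 1567 and 1245 of 21670. With pseudocount 0.1, array weights or the kind of column as a covariate 1 fell, against 1364, 2950 and 1599 of 21670 rows. Pseudocount 5 gave 6 falling rows, against 1689 of 21670. With tailbud libraries alone 24 fell, against 1146 of 22551 rows, and from NF 10 on 12 fell, against 146 of 22097. Within columns summing to 1000000 the median slope was -0.38, and -0.11 over all rows. Spike-in scaling gave 1 rising row, against 3447 of 22321. Left-out libraries gave 0 to 1 falling and 0 rising, against 79 to 1371 and 159 to 1126 over all rows. The cause of these moves was not tested.

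The summed share in the tailbud window was 0.665% in TPM and 1.14% with spike-in scaling. Left-out libraries moved it from 0.576% to 0.771%, the neurula share from 1.34% to 1.48%, the gastrula share from 0.956% to 1.57%, the blastula share from 0.0527% to 0.146% and the pre-midblastula share from 0.000452% to 0.000570%. No paired analysis was possible because each stage has 1 library and the replicate numbers only name stages. Unknown depth limits every value near 0.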
